A study of Mus musculus with 4 samples.

Results

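The effect of ischemia on gene expression in mouse cortex was taken over both genotypes of the study, as the mean of the ipsilateral arrays minus the mean of the contralateral arrays. All 4 arrays of the series entered it, and it was computed for 18194 genes, each represented by its brightest probe set (by mean signal) that is annotated to 1 gene. The mice were C57BL/6J wild-type (WT) animals and P4H-TM deficient (P4htm-/-) animals, which lack the transmembrane prolyl 4-hydroxylase. All were 3 months old, and in all the left middle cerebral artery (MCA) had been coagulated and cut (permanent MCAO) 24 h before the whole cortex was taken. The ipsilateral cortex is the injured left side, and the contralateral cortex is the uninjured right side of the same animals, so no group is free of surgery or anesthesia. RNA of 4 mice was pooled for each array, and each side of each genotype has 1 array. The P4htm-/- line had been crossed back to C57BL/6, and all animals were scanned by MRI and perfused with saline before dissection. The WT pair and the P4htm-/- pair are the only repeats of the injury effect. They share no array, and each pair is a pool, so the spread between mice is not seen.

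After the main artery to the lateral cortex is closed, neurons in the core die within hours, and the surrounding tissue turns to a program of glial activation. Astrocytes build up intermediate filaments and secrete acute-phase proteins, microglia and vessels release chemokines, and neutrophils and monocytes enter from the blood. Much of this program runs through the Jak-Stat pathway downstream of cytokines of the interleukin-6 family, through NF-kappaB downstream of Toll-like receptors, and through interferon signalling.

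The array signals are log2 values. The array medians ranged from 5.53 to 5.55, with 59.2% to 59.8% of probe sets brighter than the background of 4.78. This limit is the 95th percentile of 83 receptor probe sets for smell, pheromones and taste, which cortex is not known to use. P4htm, the targeted gene, had a side difference of -0.01 in WT and -0.04 in P4htm-/- cortex, and its signal was 10.03 and 10.02 on the WT arrays against 8.27 and 8.23 on the P4htm-/- arrays. The P4htm-/- signals stayed above background, and whether the probes lie in the deleted part of the gene is not known. Markers of cortex were bright on all arrays, with Snap25, a synaptic protein, at 13.82 to 13.98 and Mbp, a myelin protein, at 14.23 to 14.37.

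The injured cortex had many more genes with a higher signal than with a lower one in both genotypes. A gene was counted when its difference was at least 1.5-fold, or 0.585 on the log2 scale, in the same direction in WT and in P4htm-/- cortex and its brighter arrays lay above background. By this rule 159 genes were higher on the ipsilateral side, 0.874% of all genes, and 3 were lower, 0.0165%. At 1.2-fold in both, 480 were higher, 2.64%, and 142 were lower, 0.78%. The higher side also reached much further. At 2-fold 60 genes were higher and 0 lower in both, 24 were higher at 3-fold, 16 at 4-fold and 4 at 8-fold, and Ttr alone passed 16-fold. Of the 83 receptor probe sets, 0 passed 1.2-fold in the same direction in both genotypes, and the SD of their main effect was 0.13. The background limit was taken from these same probe sets, so most of their signals lie below it by definition. The 0 is therefore no rate of false calls for brighter genes.

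With 2 pairs of arrays the fit had 1 residual degree of freedom, and 0 of 18194 genes (0%) passed an adjusted p of 0.05 in either direction in limma with genotype as a block. After cyclic loess scaling of the arrays, the same fit had 157 higher and 3 lower genes, of which 145 of the higher ones were among the 159, and with no block it had 113 and 1. At an unadjusted p under 0.05 limma had 1014 higher and 541 lower genes, among them all 159 higher and all 3 lower genes of the 1.5-fold rule. The fit and the rule use the same 2 differences of each gene, so this overlap is no separate support. The lowest adjusted p was 0.16, shared by 9 genes, namely A2m, Il11, Lgals3, Osmr, Ptx3, S100a8, Serpina3n, Socs3 and Tgm1. For the 159 higher genes it ranged from 0.16 to 0.57, and for the 3 lower genes from 0.403 to 0.507. An exact permutation test of 2 pairs cannot give a two-sided p under 0.5. The values below are therefore descriptions, given with the standard error (SE) of the fit where a main effect is printed with an error. This SE comes from the gap between the 2 genotypes, moderated across genes, and holds any genotype effect on the response as well as noise. It does not measure a spread between mice, and for genes with nearly equal pairs it is close to its lowest value, 0.0669.

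Large differences in one genotype mostly had the same sign in the other. Among 13145 genes with a mean above background, Pearson's r between the WT and the P4htm-/- difference was 0.59 and Spearman's rho 0.27, both across genes, which are not independent replicates. Same signs were found for 55.4% of them. Of 2091 genes that were higher by less than 0.1 in WT cortex, 43.5% were also higher in P4htm-/- cortex. The share was 92.5% of 200 genes higher by 0.585 to 1, 98.7% of 75 genes higher by 1 to 2, and 21 of 21 genes higher by 2 or more. Sorted the other way, by the difference in P4htm-/- cortex, 97.5% of 120 genes higher by 0.585 to 1 and all of the 53 and 17 genes in the bins above it were also higher in WT cortex. For lower genes, 88.2% of 51 genes lower by 0.585 to 1 in WT were also lower in P4htm-/- cortex, and of these 3.92% were lower by 1.5-fold there, against 33.5% of the higher genes of the same size. Sorted by P4htm-/- cortex, the share for lower genes was 60.0%, 59.2%, 63.8% and 80.0% from the smallest differences to those of 0.585 to 1, the last of 20 genes.

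**Figure D1:**
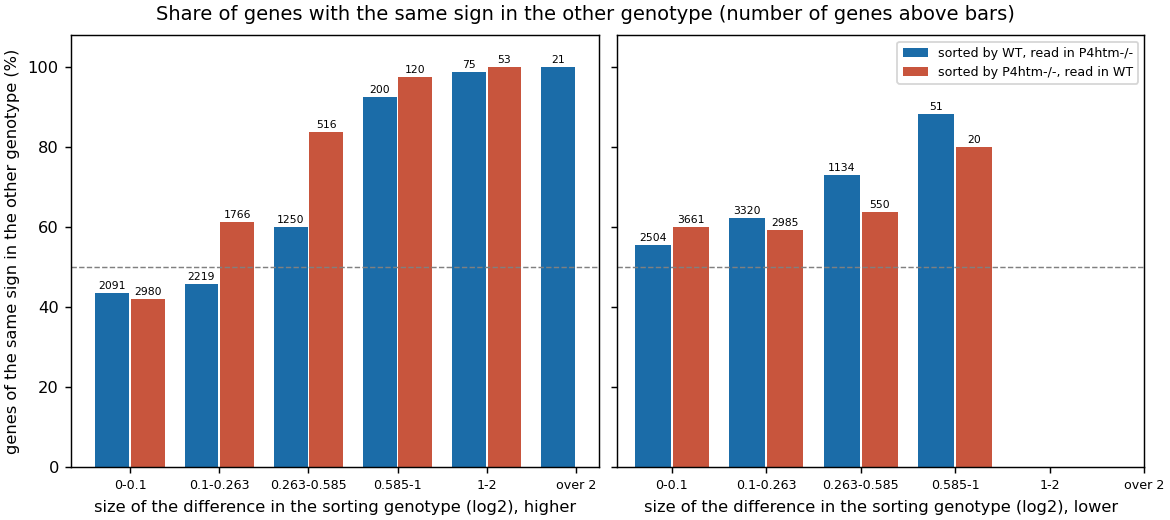
Share of genes (vertical axis, percent) that have the same sign in the other genotype, by the size of their difference in the genotype used for sorting (horizontal axis, log2), for higher genes on the left and lower genes on the right. Bars are shown for 20 or more genes, whose number stands above each bar, and the dashed line marks 50%. For higher genes the share sorted by WT goes from 43.5% to 100%.

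The genes with the largest main effects included a thyroxine carrier, chemokines, protease inhibitors and a galectin. A set of 4 values gives the contralateral and then the ipsilateral signal in WT, followed by the same in P4htm-/- cortex. Ttr, which encodes transthyretin, the thyroxine carrier made by the choroid plexus, read 8.71, 14.06, 9.03 and 13.62, a main effect of 4.97 ± 0.227 (SE, n = 2 pairs). The mean signal of a list of 21 choroid plexus genes, Ttr among them, was higher on both ipsilateral arrays. It was 6.33 against 5.45 in WT and 6.02 against 5.46 in P4htm-/- cortex, and Ttr itself adds to this difference. The part of the choroid plexus in the Ttr result was not tested. Ccl12, a chemokine that attracts monocytes, read 5.15, 9.66, 5.23 and 8.99 and was higher by 4.14 ± 0.224. For both genes, which were named for the size of their effect, each ipsilateral array lay far above each contralateral array. Ptx3, a long pentraxin of innate immunity, read 3.89, 7.50, 4.08 and 7.60, so that both contralateral arrays were below background and the effect was at least 2.77 with these set to the background limit. Timp1, the tissue inhibitor of metalloproteinases, read 4.37, 8.29, 4.99 and 7.71. Its WT contralateral array was below background, so the difference was at least 3.505 in WT, and it was 2.72 in P4htm-/- cortex. Lgals3, a galectin of activated phagocytes, read 4.82, 7.84, 4.41 and 7.65. In Ptx3, Timp1 and Lgals3 the contralateral signals were near or below background and the ipsilateral ones clearly above it. A2m, a broad protease inhibitor of plasma, read 6.01, 8.46, 5.74 and 8.34, a main effect of 2.53 ± 0.0794.

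**Figure D2:**
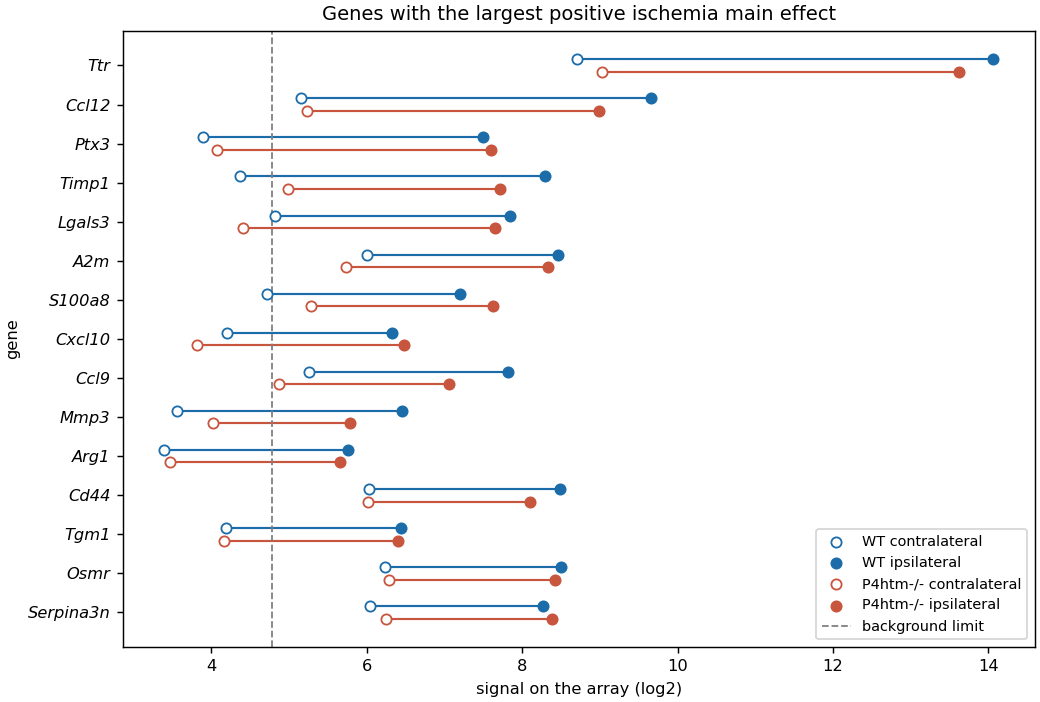
Signals on the 4 arrays (log2, horizontal axis) of the 15 genes with the largest positive main effect among those past 1.5-fold in both genotypes whose other probe sets have the same sign (so without Tubb6), open points contralateral and filled points ipsilateral, with the background limit dashed. The filled point lies to the right of the open point for every gene and genotype, from Ttr with a main effect of 4.97 to Serpina3n with 2.19.

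Several of the genes of this group had a nearly equal difference in both pairs. Tgm1, a transglutaminase that cross-links proteins, read 4.19, 6.44, 4.16 and 6.41, a difference of 2.25 in each genotype and, since both contralateral arrays were below background, of at least 1.64 in the main effect. Osmr, the receptor subunit for oncostatin M, read 6.24, 8.50, 6.29 and 8.42, and Serpina3n, a serine protease inhibitor of reactive astrocytes, read 6.04, 8.27, 6.25 and 8.39. Their main effects were 2.20 ± 0.0765 and 2.19 ± 0.0717. Il11, a cytokine of the interleukin-6 family, read 4.66, 6.82, 4.37 and 6.48 and was higher by at least 1.87. Socs3, the feedback inhibitor of Jak-Stat signalling, read 6.88, 8.89, 6.64 and 8.71, and its other 2 probe sets above background also had higher signals on both ipsilateral arrays. Of the 20 genes with the largest WT difference among those with a mean above background, 15 were among the 20 with the largest P4htm-/- difference, and 69 of the top 100 were shared.

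To show sequence next to the genes that were higher together, short stretches upstream of the transcription start are given for 8 of them. These were chosen because they hold a match to a motif that was searched. The stretches come from the RefSeq annotation of GRCm38.p6, are written 5′ to 3′ on the strand of the gene, and carry the motif match in capitals. The motifs were searched on both strands in the 250 bases before each start.
Cxcl10, chr5:92349014-92349073, minus strand, NF-kappaB consensus: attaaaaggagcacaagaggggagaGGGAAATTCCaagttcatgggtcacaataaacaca
Mmp3, chr9:7445751-7445807, plus strand, AP-1: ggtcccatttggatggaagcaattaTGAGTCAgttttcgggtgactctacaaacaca
Il11, chr7:4778208-4778264, minus strand, AP-1: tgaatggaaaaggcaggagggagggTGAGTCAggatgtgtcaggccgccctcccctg
Tgm1, chr14:55713632-55713690, minus strand, GAS: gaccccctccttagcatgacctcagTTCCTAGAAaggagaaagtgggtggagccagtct
Socs3, chr11:117969487-117969545, minus strand, GAS: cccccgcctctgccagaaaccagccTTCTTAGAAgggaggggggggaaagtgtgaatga
Lcn2, chr2:32387923-32387980, minus strand, C/EBP: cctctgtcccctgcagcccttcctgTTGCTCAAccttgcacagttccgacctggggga
Hspa1a, chr17:34972228-34972285, minus strand, heat shock element core: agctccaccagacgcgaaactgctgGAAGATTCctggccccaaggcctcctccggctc
Hspa1b, chr17:34959310-34959367, minus strand, heat shock element core: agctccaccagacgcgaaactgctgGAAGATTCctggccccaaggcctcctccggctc

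The matches are descriptions of letters and not binding sites. Of the 159 higher genes, 123 had a window in the table, 145 windows in all. The AP-1 motif (TGANTCA) was in 16.6% of these windows and in 6.75% of all 32851 windows. The GAS motif of Stat proteins (TTCNNNGAA) was in 16 of the 145 windows and in 7.02% of all, while the C/EBP motif (TTGCNNAA) in 13.1% and 9.56%, and the NF-kappaB consensus in 8.28% and 3.9%. The heat shock element core (GAANNTTC) was in 7.59% and 6.69%, the ISRE core of interferon response genes (GAANNGAAA) in 6.21% and 6.31%, the hypoxia response core (ACGTG) in 15.9% and 16.6%, the CRE (TGACGTCA) in 2.07% and 1.55%, and the CArG box in 0% and 1.47%. The GAS motif can overlap the heat shock element core and GAANNGAAA, since they share the letters TTC or GAA. In the 18110 windows of measured genes, the shares were 5.62% for AP-1, 6.21% for GAS, 8.34% for C/EBP and 4.49% for NF-kappaB. There the heat shock element core was in 5.48% and the hypoxia response core in 19.5%. Of the 250 bases upstream of Hspa1a and Hspa1b, 247 were identical at the same position.

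In 42 gene lists, the median main effect ranged from 0.85 for reactive astrocytes to -0.13 for circadian clock genes, against -0.005 for all 18194 genes. The lists overlap, and 109 of the 159 higher genes are in at least 1 of them. Reactive astrocyte genes had the highest median in both genotypes, 0.94 in WT and 0.85 in P4htm-/- cortex. The next in WT were phagocytes (0.63), choroid plexus (0.55) and interferon response genes (0.535), and in P4htm-/- cortex interferon response genes (0.595) and phagocytes (0.52). At the other end, the medians of neuronal, ion channel and receptor genes were below 0 in both genotypes by less than 0.2. In whole tissue, a change in the number of cells of a type and a change in RNA per cell cannot be told apart.

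**Figure D3:**
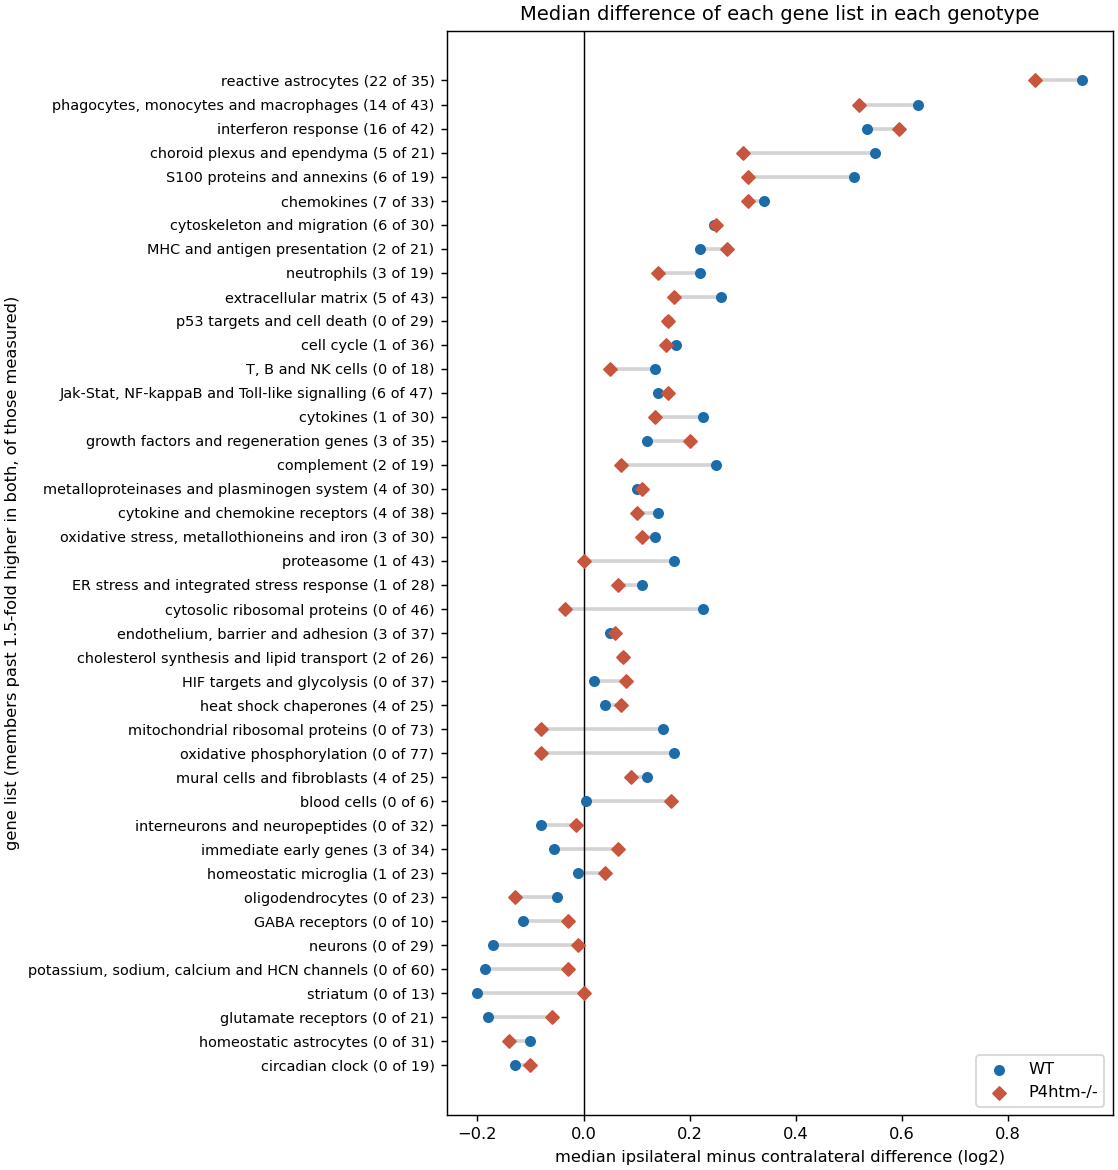
Median ipsilateral minus contralateral difference (log2, horizontal axis) of each of 42 gene lists in WT (circles) and in P4htm-/- cortex (diamonds). The numbers beside a list give its members past 1.5-fold higher in both genotypes and its measured members. Reactive astrocytes, with 22 of 35, lie farthest to the right.

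Of 35 reactive astrocyte genes measured, 22 were past 1.5-fold higher in both genotypes, 62.9% of the list against 0.874% of all genes, and 0 were lower even at 1.2-fold. Gfap, the intermediate filament by which reactive astrocytes are known, read 8.07, 10.20, 8.14 and 9.97, a main effect of 1.98 ± 0.109, and Vim, another filament protein, read 9.19, 10.74, 9.09 and 10.46. Their other probe sets, 2 for each gene, had the same direction. Lcn2, an iron-binding lipocalin, read 4.89, 6.54, 4.11 and 6.72. Its P4htm-/- contralateral array was below background, and the difference was 1.65 in WT and at least 1.94 in P4htm-/- cortex. Cd44, the hyaluronan receptor, read 6.03, 8.49, 6.02 and 8.10. The main effects of the list went from 3.57 in Ptx3 to -0.12 in Fkbp5, a glucocorticoid-induced co-chaperone. Of 31 genes of resting astrocytes, with a median of -0.13, 18 were lower and 6 higher in both genotypes. These are 58.1% and 19.4%, against 28.6% and 25.9% of all genes. Those past 1.2-fold lower in both were Acsbg1, Gldc, Id4, Mertk and Ndrg2, 5 of 31 or 16.1%, against 0.78% of all genes. Gldc, the glycine-cleaving decarboxylase, read 8.20, 7.70, 8.05 and 7.73, and Ndrg2 read 11.87, 11.54, 11.84 and 11.40. Aqp4, the water channel of astrocyte endfeet, was instead higher by 0.35 ± 0.0717, and Slc1a2, the main glutamate transporter, read 13.99, 13.76, 13.94 and 13.93. The other 3 probe sets of Slc1a2 differed by -0.15, 0.01 and 0.21 in WT, with no shared direction.

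Of 43 genes of phagocytes, monocytes and macrophages, 14 were past 1.5-fold higher in both genotypes (32.6%) and 37 had higher signals in both at any size (86.0% against 25.9% of all genes). Ms4a6d read 5.14, 6.75, 4.99 and 6.85, and Ctsc, a lysosomal protease, read 7.99, 9.27, 7.80 and 9.17. Arg1, an arginase of alternatively activated macrophages, read 3.40, 5.76, 3.47 and 5.66, a difference of at least 0.93 over background. Lyz2, the lysozyme of myeloid cells, was higher by 1.17 ± 0.0861. Cd68, a lysosomal glycoprotein, read 6.78, 7.78, 6.67 and 7.23, and so missed the 1.5-fold limit in P4htm-/- cortex alone. Ccr2, the receptor of inflammatory monocytes, was at 3.86 to 4.27 and thus below background on all arrays. In the list of resting microglia, 11 of 23 genes were higher and 10 lower in both genotypes. These are 47.8% and 43.5%, against 25.9% and 28.6% of all genes. At 1.2-fold 5 were higher (21.7% against 2.64% of all genes) and 1 lower (4.35% against 0.78%). P2ry12, the purinergic receptor of resting microglia, read 8.20, 7.82, 8.13 and 7.74, lower by 0.39 ± 0.067, whereas Fcrls was higher by 0.76 ± 0.0674 and Aif1, which encodes Iba-1, by 0.43 ± 0.104. Tmem119 differed by 0.03 and 0.04.

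Neutrophil genes had a mean signal of 4.25 and 4.78 in WT and of 4.45 and 4.85 in P4htm-/- cortex, contralateral first. S100a8 and S100a9, the subunits of calprotectin, read 4.72, 7.20, 5.28 and 7.62, and 4.28, 6.74, 5.39 and 6.96. Clec4d, a lectin receptor, read 4.00, 5.47, 3.78 and 5.03. These 3 of 19 measured genes (15.8% against 0.874% of all genes) were past 1.5-fold in both genotypes. However, both contralateral signals of Clec4d were below background and its differences over the limit were at least 0.685 and 0.245. It therefore did not pass with the limit in their place. Ngp, a granule protein of maturing neutrophils, was at 4.09 to 4.42 on the first 3 arrays and at 4.90 on the P4htm-/- ipsilateral array. A further 9 genes of the list, among them Mpo, Elane and Camp, were at background on all arrays. Of 18 genes of T, B and NK cells, 13 were at background on all arrays and 0 passed 1.2-fold in both, against 2.64% of all genes higher and 0.78% lower.

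Some chemokines, the cytokine Il11 and a few receptors and signalling genes were higher in both genotypes. Of 33 chemokine genes, 7 were past 1.5-fold higher in both genotypes (21.2%), namely Ccl12, Ccl9, Cxcl10, Ccl3, Ccl2, Ccl4 and Ccl6. Cxcl10, which attracts T cells, read 4.20, 6.33, 3.82 and 6.48, higher by at least 1.62. Ccl3 read 4.73, 6.70, 4.47 and 6.24, and Ccl4 read 5.82, 6.75, 5.18 and 6.77. Ccl2, the main monocyte chemokine, read 4.77, 6.12, 4.58 and 5.96. Cx3cl1, the neuronal ligand of a microglial receptor, was lower by 0.37 (WT) and 0.09 (P4htm-/-). Its other probe sets above background were also lower in WT, but lay at -0.02 to 0.26 in P4htm-/- cortex, with no shared direction there. Among 30 cytokine genes only Il11 passed (3.33% against 0.874% of all genes). Il6 read 3.29, 4.96, 3.67 and 4.77, so that its P4htm-/- ipsilateral array lay just below background. Lif, leukemia inhibitory factor, read 4.47, 6.08, 4.78 and 5.02, with a difference of at least 1.295 in WT and 0.235 in P4htm-/- cortex. Il1b read 4.66, 5.23, 4.94 and 5.07, and Tnf did not exceed background on any array.

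Of 38 receptors, 4 passed 1.5-fold in both genotypes (10.5% against 0.874% of all genes). Besides Osmr they were Tnfrsf12a, the receptor of the cytokine TWEAK, at 7.62, 8.93, 7.40 and 8.27, Csf2rb, the common beta subunit of interleukin receptors, and Tnfrsf1a, a receptor of tumor necrosis factor, with main effects of at least 0.968 and of 0.96 ± 0.088. In the signalling list 6 of 47 genes passed (12.8%). Cd14, the co-receptor for lipopolysaccharide, read 6.85, 8.46, 6.74 and 8.59. Stat3, the transcription factor of the interleukin-6 family, read 8.46, 9.24, 8.59 and 9.30, and all of its probe sets above background had the same sign. Cebpd, a transcription factor of the acute phase, was higher by 1.39 ± 0.0937, Tlr2 by at least 1.03 and Bcl3, an atypical inhibitor of NF-kappaB, by 0.76 ± 0.0826. Nfkbia, the inhibitor that NF-kappaB induces, differed by 0.11 and 0.08.

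Interferon response genes had higher signals in both genotypes almost throughout. Of 42 measured, 39 were higher and 0 lower in both pairs at any size, 92.9% against 25.9% of all genes, and 16 passed 1.5-fold (38.1%). Ifitm1, an antiviral membrane protein, read 6.97, 8.94, 7.20 and 8.71, and Ifitm3 read 8.34, 9.84, 8.30 and 9.64. Gbp2 and Iigp1, interferon-induced GTPases, read 5.87, 7.21, 5.58 and 7.15, and 5.77, 6.98, 5.80 and 7.24. Usp18, which removes the ubiquitin-like interferon-stimulated modifier, read 4.70, 5.91, 4.76 and 6.01, and Ifit3 read 7.41, 8.07, 7.08 and 8.10. Of 21 genes of antigen presentation, 2 were past 1.5-fold higher in both (9.52% against 0.874% of all genes). Psmb8, a subunit of the immunoproteasome, read 6.73, 7.64, 6.52 and 7.51, and H2-Aa, a class II chain, read 6.59, 7.43, 6.37 and 7.16. H2-D1 was higher by 0.42 ± 0.0698 and B2m by 0.14 ± 0.0844. Of 19 complement genes, C3ar1, the receptor of an anaphylatoxin, and Itgb2, a chain of a complement receptor, passed (10.5% against 0.874% of all genes). C3ar1 read 5.11, 6.51, 5.03 and 6.59. C1qa and C1qc, chains of the recognition molecule of the classical pathway, were higher by 0.47 and 0.49, and by 0.43 and 0.43.

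Among immediate early genes, 3 of 34 passed 1.5-fold in both genotypes, 8.82% against 0.874% of all genes. At any size 14 were higher and 11 lower in both, 41.2% and 32.4% against 25.9% and 28.6% of all genes. Atf3, a transcription factor of injured cells, read 5.13, 6.61, 5.52 and 6.68, Maff read 5.54, 6.69, 5.93 and 6.58, and Nptx2, a synaptic pentraxin, read 8.44, 9.10, 8.45 and 9.50. Fos was higher by 0.34 and 0.22, Egr1 lower by 0.27 and 0.04, and Arc lower by 0.30 and 0.10, all short of 1.5-fold. Among 25 heat shock chaperones 4 passed (16%). Hspa1b, the inducible Hsp70, read 10.21, 11.84, 12 and 12.70, and Hspa1a read 8.34, 10.07, 9.81 and 10.79. For both genes the contralateral P4htm-/- array lay above the contralateral WT array, so their difference between sides was larger in WT, 1.63 and 1.73, than in P4htm-/- cortex, 0.70 and 0.98. The coding sequences of these neighbours are nearly identical, so their signals may not be separate. The small chaperones Hspb1 and Hspb6 were higher by 0.83 ± 0.113 and 1.08 ± 0.088. In the list of the unfolded protein response only Nupr1 passed, of 28 genes (3.57%), and Ddit3 and Hspa5 were higher by 0.16 ± 0.0958 and 0.11 ± 0.0671.

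Oxidative stress and iron genes included Hmox1, heme oxygenase, at 5.48, 7.47, 5.91 and 7.33, the metallothionein Mt2 at 11.58, 12.27, 11.56 and 12.29, and Cp, the copper-carrying ferroxidase ceruloplasmin. For Cp, 4 of 6 other probe sets had the same sign. Of 29 genes of the p53 and cell death list 0 passed 1.5-fold, against 0.874% of all genes. At 1.2-fold 4 were higher (13.8% against 2.64%), among them Cdkn1a, a cell cycle inhibitor, at 8.77, 9.57, 9.13 and 9.63. Of 37 targets of hypoxia-inducible factors and glycolytic enzymes, 0 passed 1.5-fold in both, against 0.874% of all genes, and the median was 0.05. Past 1.2-fold, 2 were higher (5.41% against 2.64% of all genes) and 0 lower. At any size 13 were higher and 5 lower in both, 35.1% and 13.5% against 25.9% and 28.6% of all genes. Hk2, a hexokinase, was higher by 0.66 in WT and 0.47 in P4htm-/- cortex. Adm, adrenomedullin, read 5.02, 6.12, 5.63 and 5.92. Vegfa differed by 0.13 and -0.07, Slc2a1, the glucose transporter of the barrier, by 0.04 and 0.06, and Ldha by 0.30 and 0.25. A dimmer probe set of Vegfa differed by -0.29 in WT and -0.16 in P4htm-/- cortex.

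Among proteases and matrix genes, Mmp3, the metalloproteinase stromelysin, read 3.56, 6.46, 4.02 and 5.79, higher by at least 1.34, and Adamts1 read 7.01, 8.33, 6.82 and 8.29. Mmp9, a gelatinase of neutrophils and vessels, was higher by only 0.25 and 0.35. Mmp12 had 1.68 in WT and 0.18 in P4htm-/- cortex, of which just the WT ipsilateral array, at 5.30, was above background. Of 43 matrix genes 5 passed (11.6% against 0.874% of all genes). Tgfbi, a matrix protein induced by transforming growth factor beta, read 6.25, 8.04, 5.79 and 7.90 with 3 of 3 other probe sets of the same sign, and Col3a1, a fibrillar collagen, read 6.20, 7.88, 6.08 and 7.33. Dcn and Lum, small proteoglycans, were higher by 0.81 ± 0.113 and 0.91 ± 0.0698, and Fn1 by 0.43 ± 0.069. In vessels, Selp, the endothelial selectin, read 4.57, 5.48, 4.45 and 5.49 and Cd93 read 7.41, 8.26, 7.46 and 8.34. Icam1 was higher by 0.71 in WT and 0.29 in P4htm-/- cortex. The tight junction gene Cldn5 was higher by 0.24 and 0.06 and Ocln lower by 0.25 and 0.22. Fibroblast and mural genes were divided, with Aldh1a2, a retinoic acid enzyme of the meninges, higher by 1.17 ± 0.0727, Fmod lower by 0.58 ± 0.0707, and by 0.305 to 0.465 in its other 5 probe sets, and the pericyte genes Pdgfrb and Rgs5 at 0.08 ± 0.0707 and -0.12 ± 0.0918.

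Genes of cell shape and calcium binding were also higher. Of 19 S100 proteins and annexins, 6 passed 1.5-fold in both (31.6% against 0.874% of all genes), namely S100a8, S100a9, S100a4, S100a6, Anxa2 and Anxa1. S100a6 read 8.58, 9.74, 8.31 and 9.07 and Anxa2 read 7.89, 9.04, 7.75 and 8.52. Of 30 cytoskeletal genes, 26 were higher and 0 lower in both pairs (86.7% against 25.9% of all genes). Tubb6, a beta tubulin, read 4.93, 7.78, 5.31 and 7.30, but its other probe set above background was level, at -0.08 in WT and 0.08 in P4htm-/- cortex. Msn, the membrane linker moesin, read 8.22, 9.24, 8.14 and 9.18. Of 36 cell cycle genes only Mcm3 passed (2.78% against 0.874% of all genes). Mcm3, a subunit of the replicative helicase, read 5.19, 6.15, 4.97 and 5.58, and Mcm6 read 7.03, 7.75, 6.93 and 7.50, whereas Mki67 was below background. Of growth factor genes, Igfbp3 and Igfbp7, binding proteins of insulin-like growth factors, were higher by 0.91 ± 0.0717 and 0.86 ± 0.0707, and Igf1 differed by -0.05 and 0.07. A dimmer probe set of Igfbp7 differed by -0.16 in WT and 0.22 in P4htm-/- cortex. Ch25h, a cholesterol hydroxylase, read 6.18, 7.33, 6.40 and 7.58, and Plin2, which coats lipid droplets, read 7.22, 8.27, 7.18 and 8.09.

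Genes of the choroid plexus, a tissue that lies next to but outside the cortex, were brighter on the injured side. Of 21 measured, 17 were higher and 0 lower in both genotypes (81.0% against 25.9% of all genes), and 5 passed 1.5-fold (23.8%). The list was above background in 14 and 18 genes on the WT arrays and in 13 and 16 on the P4htm-/- arrays, contralateral first. Besides Ttr the 5 were Ecrg4, at 6.35, 8.38, 6.48 and 7.22, Sostdc1, at 5.07, 6.13, 5.11 and 6.04, Lbp and Kl, the klotho gene, at 4.91, 5.62, 4.78 and 5.80. For Lbp, the other probe set above background differed by -0.03 and -0.05. Folr1, a folate receptor, read 4.56, 5.11, 4.57 and 5.01, Aqp1, a water channel of the plexus, read 3.90, 4.88, 3.73 and 4.33, and Kcne2, Otx2 and Slc4a5 were not above background on any array. The part of this tissue in the other differences was not tested. Of 6 blood cell genes, 0 passed 1.2-fold in both and Hba-a1 was below background on all arrays, at 3.36 to 3.83. Markers of the striatum, which lies beneath the cortex, were all above background, and 0 of 13 passed 1.2-fold in both. At that fold 2.64% of all genes were higher and 0.78% lower.

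The lower genes differed by less than the higher ones. Frzb, a secreted Wnt antagonist, read 7.89, 6.72, 7.67 and 6.90, lower by 0.97 ± 0.132. Adamts20, a secreted metalloproteinase, read 7.10, 6.34, 6.73 and 6.12, and Heph, the ferroxidase hephaestin, read 6.07, 5.37, 5.83 and 5.17. These 3 genes are the ones past 1.5-fold lower in both genotypes, a rule that largely sets the order of their arrays in advance. Mme, the peptidase neprilysin, read 7.61, 6.55, 7.09 and 6.82, with most of its difference in WT, and Etnppl, a phospholyase of astrocytes, read 9.21, 8.70, 9.31 and 8.59. Gdf10, a growth factor of the transforming growth factor beta family, read 7.19, 6.43, 6.91 and 6.41. Lrp1b, a lipoprotein receptor, was lower by 0.73 and 0.52 and Ppp1r3g, which targets a phosphatase to glycogen, by 0.67 and 0.53. Avp, which encodes vasopressin, read 7.92, 7.59, 9.34 and 8.03, so its second-lowest effect of all these genes rests on the P4htm-/- pair, with a difference of -1.31 there and -0.33 in WT.

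**Figure D4:**
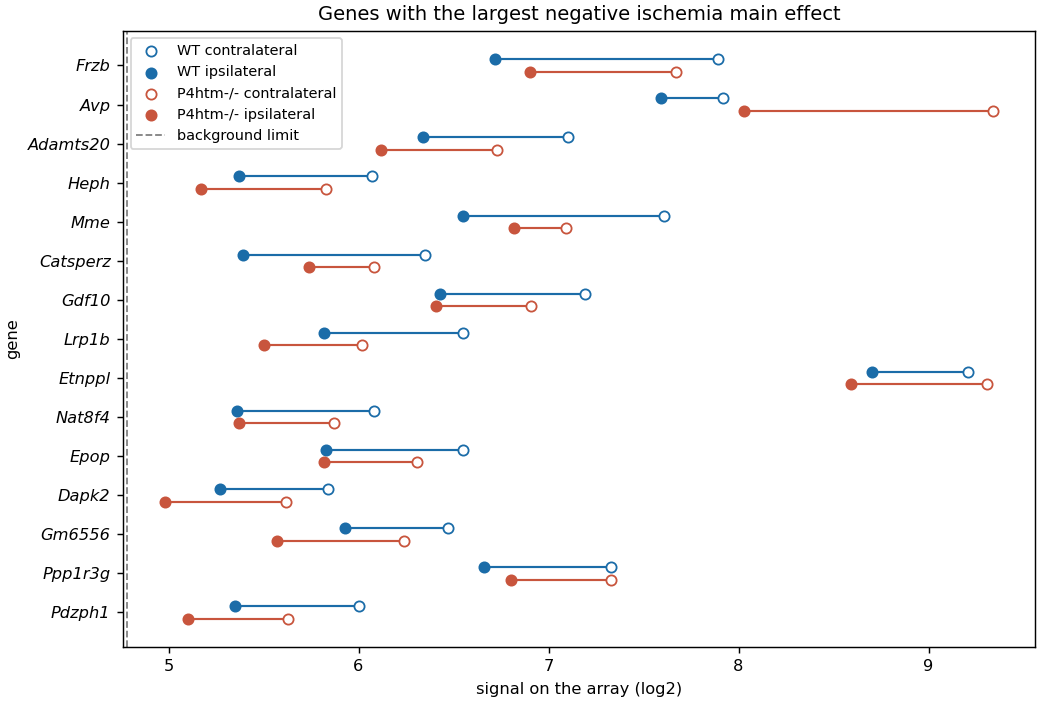
Signals on the 4 arrays (log2, horizontal axis) of the 15 genes with the largest negative main effect among those past 1.2-fold lower in both genotypes whose other probe sets have the same sign, open points contralateral and filled points ipsilateral. Each filled point lies to the left of the open point of its genotype, by -0.97 in the main effect for Frzb, and the dashed line at the left edge is background.

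Neuronal genes differed little between the sides. Of 29, 13 were lower and 3 higher in both genotypes, 44.8% and 10.3% against 28.6% and 25.9% of all genes, and 0 passed 1.2-fold. The list's median was -0.17 (WT) and -0.01 (P4htm-/-), against 0 and -0.01 over all genes. Rbfox3, which encodes the nuclear marker NeuN, read 12.67, 12.42, 12.61 and 12.56, and Map2 read 12.61, 12.32, 12.55 and 12.52. The other 3 probe sets of Map2 were higher by 0.28 to 0.34 in WT, so its probe sets did not share a direction there. Of 60 ion channel genes 34 were lower and 6 higher in both, and Kcnip2, a potassium channel partner, had -0.59 in WT and -0.19 in P4htm-/- cortex. Of 21 glutamate receptor genes 13 were lower and 2 higher in both, and Grik4, a kainate receptor subunit, was past 1.2-fold lower at -0.28 and -0.45. Gabrd, the delta subunit of extrasynaptic GABA receptors, read 9.31, 8.68, 9.15 and 8.78, the largest difference among 10 GABA receptor genes. Of 23 oligodendrocyte genes 11 were lower and 2 higher in both, Gpr17, a receptor of oligodendrocyte precursors, by -0.24 and -0.40. Of 19 circadian clock genes 14 were lower and 1 higher in both genotypes, 73.7% against 28.6% of all genes, but 0 passed 1.2-fold. Their values were small, as for Dbp, an output gene of the clock, at 11.07, 10.79, 10.95 and 10.79, Per1 at 8.91, 8.78, 9.26 and 9.03, and Nr1d1, with -0.13 in each genotype.

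The 2 pairs also differed in size. Of the 159 higher genes, 104 had the larger difference in WT, 53 in P4htm-/- cortex and 2 were equal, with medians of 1.11 and 0.95. The gap between the pairs was under 0.1 in 44 genes and over 0.585 in 19. With signals below background set to the limit, the larger difference was in WT for 106 and in P4htm-/- cortex for 52, and the gap was over 0.585 in 16. Among those of the 159 with all 4 signals above background, Ecrg4 (2.03 in WT and 0.74 in P4htm-/- cortex) and Ccl4 (0.93 and 1.59) had the largest gap each way. By the 1.5-fold rule in 1 genotype alone, 322 genes were higher and 59 lower in WT, and 204 and 22 in P4htm-/- cortex, so that the 159 shared genes were 49.4% of the WT and 77.9% of the P4htm-/- higher genes. The shared lower genes were 5.08% and 13.6%. With 1 pool for each genotype, the gap of a gene could not be set against a spread between mice.

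**Figure D5:**
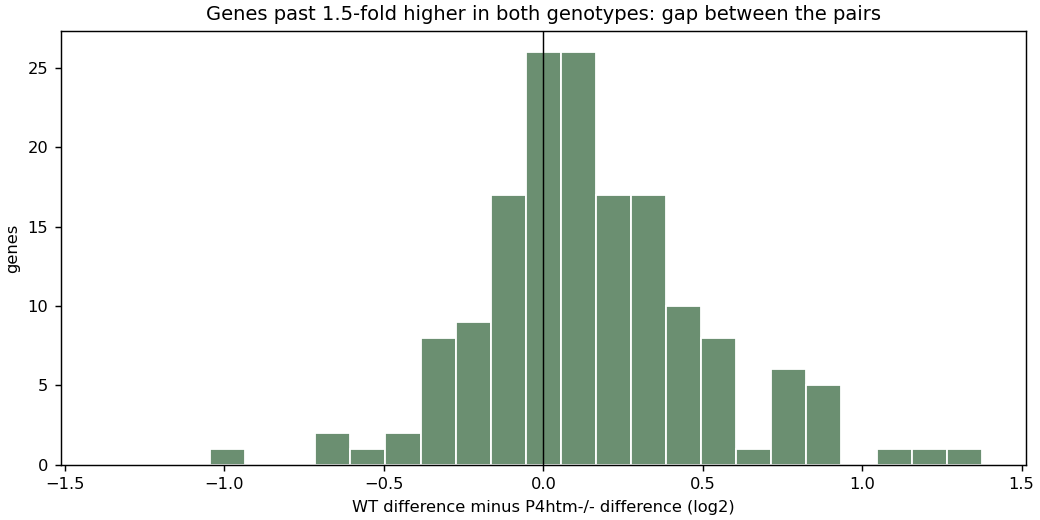
Number of genes (vertical axis) by the gap between the WT and the P4htm-/- difference (log2, horizontal axis) for the 159 genes past 1.5-fold higher in both genotypes, from the signals as deposited, in bins of equal width centred on 0. More genes lie to the right of 0, where the WT difference is larger, 104 against 53.

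The medians of large housekeeping complexes differed between the pairs, which was not tested. Cytosolic ribosomal protein genes had a median difference of 0.23 in WT and -0.04 in P4htm-/- cortex. Rplp0, at 12.09, 12.58, 12.03 and 12.22, was instead higher in both pairs. Of 46 genes 12 were higher in both pairs, 26.1% against 25.9% of all genes, and 0 passed 1.2-fold. Proteasome genes had medians of 0.17 and 0, with 18 of 43 higher in both pairs, 41.9% against 25.9% of all genes. Only Psmb8, which interferon induces, passed (2.33% against 2.64% of all genes at 1.2-fold and 0.874% at 1.5-fold). For the genes of oxidative phosphorylation 0 of 77 passed 1.2-fold, and for mitochondrial ribosomal proteins 1 of 73, Mrps6.

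Among features that the rule did not use, the higher genes were short, and some lay side by side. The median gene span was 11.6 kb for the 159 higher genes, 22.9 kb for the 141 of 142 lower genes at 1.2-fold with a span, and 23.8 kb for 13113 genes with a mean above background. Along the chromosomes, counting measured protein-coding genes only, 22 of the 159 were direct neighbours of another, in 13 pairs. The number of such pairs among other genes was not counted, so no clustering is read from this. These included Ccl9, Ccl6, Ccl3 and Ccl4, the trio S100a6, S100a8 and S100a9, the trio Ifitm2, Ifitm1 and Ifitm3, and Dcn with Lum. The neighbours Lyz1 and Lyz2, Hspa1a and Hspa1b, and Gbp3 and Gbp7, which are among the 13 pairs, are similar in sequence, so probes may be shared between them. Another probe set above background existed for 47 of the 159 genes. In 43 of these all such probe sets had the same sign, and in 29 at least 1 was itself past 1.5-fold higher in both genotypes. Both contralateral arrays were at or below background for 19 of the 159, and 1 of them for 11. With signals below background set to the limit, 151 of the 159 still passed 1.5-fold in both genotypes, and the other 8 were AA467197, Cd300lf, Clec4d, Fcgr4, Hcar2, Lipg, Slc10a6 and Slfn4.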

How the data were processed

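Cortex of 4 pooled mice per array was hybridized to Affymetrix Mouse Genome arrays. The authors normalized the quantified signals with GenePattern, and the deposited table holds 1 log2 value for each probe set and array, for which the submitters' processing notes name RMA. RMA equalizes the distribution of the arrays, so a shift of all genes would be removed. Their versions are not given here, and base 2 was taken from the range, 2.51 to 14.90. Arrays give no depth, and their number limits the precision.

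Of 45101 probe sets, 34958 name 1 gene, 932 several and 9211 none in the annotation used. Symbols of 34754 were updated through Entrez IDs with a RefSeq table (GRCm38.p6), used for names, gene spans and order only. The table had 0 columns that were not used. The main effect was fitted with limma 3.58.1 (lmFit, eBayes) in R 4.3.3 with genotype as a block, since both sides of a genotype come from the same mice, and p-values were adjusted by Benjamini-Hochberg over 18194 genes at 0.05. Counts used Python 3.11.15 with pandas 2.3.3 and numpy 2.4.6. The fit was tested on simulated data.

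Members and lists were chosen with earlier results of these data known. Named genes are the 15 with the largest effect in each direction whose other probe sets agree in sign, up to 6 members per list with key markers, and the 6 with the largest gap between genotypes each way. The rule also asked for an adjusted p under 0.05, which no gene reached, so the highest and lowest genes, the lower ones at 1.2-fold, were chosen after their values were seen. Genes named outside it were also chosen that way. Alternatives were the probe set choice, centring, loess, filters, other folds and backgrounds, other forms of the fit and each pair alone. Some genes are not reported here.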

Additional observations from a re-analysis of the deposited data

Results flagged for a closer look

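Several gene lists had medians of opposite sign in the WT and the P4htm-/- pair, and with 1 pool per genotype the difference between the pairs was not tested. The median ipsilateral minus contralateral difference was 0.225 in WT and -0.035 in P4htm-/- cortex for cytosolic ribosomal proteins, 0.17 and -0.08 for oxidative phosphorylation, and 0.15 and -0.08 for mitochondrial ribosomal proteins. It was -0.055 and 0.065 for immediate early genes and -0.01 and 0.04 for homeostatic microglia.

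Among the genes with the largest gap between the pairs, 3 went in opposite directions past 1.2-fold, which was not tested either. Cd1d1, a lipid-presenting molecule, was at 1.0 in WT and -0.48 in P4htm-/- cortex, 1110017D15Rik at 0.62 and -0.64, and Gm4432 at -0.61 and 0.33. Cd1d1 read 4.77 and 5.77 on the WT arrays and 5.61 and 5.13 on the P4htm-/- arrays.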

How the results depend on the processing

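By limma with genotype as a block, 0 genes were higher and 0 lower at an adjusted p of 0.05, and this held with the mean of probe sets, median centring, a filter on the mean, a trend, robust eBayes and a 1.2-fold treat test. With no replicate block, 113 were higher and 1 was lower, Frzb, and after cyclic loess 157 and 3, of which 107 and 145 of the higher genes were among the 159. The 1.5-fold counts of 159 and 3 became 60 and 0 at 2-fold and 480 and 142 at 1.2-fold. Leaving out 1 pair gave 204 to 322 higher and 22 to 59 lower genes, the larger counts without the P4htm-/- arrays. The other alternatives gave 107 to 167 higher and 2 to 4 lower genes, and 158 of the 159 were shared with cyclic loess and 120 with the mean of probe sets. Of the list medians and the gene effects named, none that was past 0.1 or past 1.5-fold in both changed sign. Setting signals below background to the limit, an alternative chosen after seeing the data, gave 151 and 3. The cause of the differences was not tested, and 1 residual degree of freedom limits the test.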
